A study of Mus musculus with 12 samples.

Results

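The genes described here are 9 rows of the deposited gene count table that encode the adhesion molecules by which leukocytes attach to vessel walls, out of 39756 genes in that table. They were taken by name: the endothelial selectins Sele and Selp, the selectin ligand Selplg, the endothelial adhesion molecules Icam1 and Vcam1, and the integrin subunits Itgal, Itgam, Itgb2 and Itga4. Another 67 adhesion genes of the table were used for comparison. RNA was sequenced from brain tissue of 12 male C57BL/6J mice aged 9 to 10 weeks, all carrying the batch label Batch1, with 4 mice in each of 3 groups. The study's methods name the ischemic hemisphere for all groups, although Sham mice had no occlusion. Sham mice underwent sham surgery and received saline. Vehicle mice received saline and underwent tMCAO, the transient occlusion of the middle cerebral artery, here by a filament that closed the artery for 45 min and was then drawn back. LJP mice underwent the same occlusion and received Laminaria japonica polysaccharide, a sulfated polysaccharide of a brown alga. By the study's methods saline or LJP was given by gavage on each of the 14 days before surgery and was continued afterwards. The study carried its middle dose, LJP-M, into the experiments after its dose comparison, but for the sequenced mice themselves neither a dose nor the time of tissue collection is given in the sources used here.

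Leukocytes leave the blood in steps. P-selectin, which endothelial cells and platelets store in granules, and E-selectin, which endothelial cells make after an inflammatory stimulus, bind the ligand PSGL-1 (Selplg) so that leukocytes roll along the wall. Integrins then hold the cell in place: LFA-1 (Itgal with Itgb2) and Mac-1 (Itgam with Itgb2) bind ICAM-1, and VLA-4 (Itga4 with Itgb1) binds VCAM-1. Microglia, the resident macrophages of the brain, also carry Itgam, Itgb2 and Selplg, and astrocytes can make Icam1 and Vcam1, so these transcripts are not specific to leukocytes or vessels in a whole hemisphere.

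Promoters are shown for the endothelial members Icam1, Sele and Selp, which are known as genes induced by inflammatory signals through NF-kappa B. Vcam1, the other endothelial member, had no promoter in the RefSeq table. The part of NF-kappa B in the differences between groups was not tested. Each sequence is the 250 bases before the start of the gene in RefSeq on GRCm38.p6, read 5′ to 3′ on the gene's own strand (the forward strand in all 3), with matches to the kappa B-like motifs GGNNTTTCC or GGAANTTCC, on either strand, in capitals. Icam1 is at chr9:21015690-21015939, Sele at chr1:164047984-164048233 and Selp at chr1:164115014-164115263.
Icam1: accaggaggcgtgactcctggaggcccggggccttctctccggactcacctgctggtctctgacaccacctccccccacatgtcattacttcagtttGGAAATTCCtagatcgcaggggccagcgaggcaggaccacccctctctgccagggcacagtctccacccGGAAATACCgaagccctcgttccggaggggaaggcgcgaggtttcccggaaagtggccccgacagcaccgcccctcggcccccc
Sele: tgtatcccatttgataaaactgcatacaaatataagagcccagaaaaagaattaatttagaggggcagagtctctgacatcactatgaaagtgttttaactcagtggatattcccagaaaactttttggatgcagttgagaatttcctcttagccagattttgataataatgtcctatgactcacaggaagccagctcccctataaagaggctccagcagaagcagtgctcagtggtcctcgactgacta
Selp: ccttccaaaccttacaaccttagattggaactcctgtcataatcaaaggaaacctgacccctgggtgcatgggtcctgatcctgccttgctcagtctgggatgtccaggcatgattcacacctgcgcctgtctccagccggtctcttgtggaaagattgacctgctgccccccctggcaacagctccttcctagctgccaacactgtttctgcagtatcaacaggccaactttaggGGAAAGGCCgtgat

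The Icam1 promoter held GGAAATTCC, which matches both motifs, 153 bases before the start, and GGAAATACC 84 bases before it. The Selp promoter held GGAAAGGCC 14 bases before the start. In the 250 bases before the Sele start neither kappa B-like pattern was found, and that start lies 8620 bases after the gene start given in the count table. These 2 patterns do not cover every form of a kappa B site. Their absence therefore does not show that the Sele promoter lacks one. Of the 32851 promoters of the RefSeq table, 4.93% held GGNNTTTCC and 0.813% held GGAANTTCC. The AP-1-like motif TGANTCA, present in 6.75% of all promoters, was found 73 bases before the Sele start as TGACTCA and 139 bases before the Selp start as TGATTCA. The PU.1-like motif GAGGAAGT (2.44% of promoters) was in none of the members' promoters, and the promoters of Itgam and Itga4 held none of these 4 motifs. The table held promoters of 5 of the 9 members. Vcam1, Selplg, Itgal and Itgb2 were not among them. A match describes the letters and does not show that a factor binds there.

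The authors deposited raw counts, with totals between 17960353 and 22216315 per mouse. Levels are given as CPM, counts scaled to a common library size after TMM normalisation. A count of 0 allows up to 3 counts, which corresponds to 0.129 to 0.173 CPM depending on the mouse. Groups were compared by edgeR's quasi-likelihood test in one fit of all 12 mice over the 17558 genes with enough counts, with the standard error of a log2 difference given as SE, and a gene was called changed at a Benjamini-Hochberg adjusted p below 0.05. All 9 members passed the filter on low counts, but Sele and Selp did so only through the Vehicle mice and LJP mouse 3, so their passing says nothing about a difference.

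Vehicle mice 1 and 2 stood apart from the other libraries in markers of several cell types. The summed level of 8 neutrophil markers (S100a8, S100a9, Cxcr2 and others) was 165.5 CPM in Vehicle mouse 1 and 40.5 in Vehicle mouse 2, against 0.753 and 5.55 in Vehicle mice 3 and 4, at most 0.519 in Sham and at most 1.11 in LJP. None of the 8 had enough counts in enough mice for the fit, and Ly6g, which defines mouse neutrophils, had at most 4 counts in any mouse. The sum of 8 endothelial markers was 749 CPM in Vehicle mouse 1 and 1602 in Vehicle mouse 2, against 310 and 385 in the other Vehicle mice, 216 to 236 in Sham and 206 to 284 in LJP. In the fit 7 of these 8 endothelial markers rose in Vehicle against Sham. Microglia markers (8 genes) summed to 227.5 to 234.2 CPM in Sham, 286.5 to 740 in Vehicle, with Vehicle mouse 1 the lowest, and 413 to 802 in LJP, and 5 of 8 rose in both tMCAO groups against Sham. The sum of 6 markers of monocytes and infiltrating macrophages was 3.07 to 4.56 CPM in Sham, 11.6 to 164 in Vehicle and 4.55 to 17.6 in LJP, and all 4 that were tested rose in Vehicle against Sham. The 4 markers of border-associated macrophages all rose in Vehicle against Sham, with sums of 8.97 to 11.3 CPM in Sham, 24.1 to 104.8 in Vehicle, highest in Vehicle mouse 2, and 12.3 to 18.1 in LJP. Of 4 pericyte markers 2 rose in Vehicle against Sham, Pdgfrb by a log2 fold change of 1.53 (0.87 without Vehicle mouse 2) and Kcnj8 by 1.58, and their sum was 289 CPM in Vehicle mouse 2 against 110 to 145 in the other 11 mice. Of 4 astrocyte markers Aldh1l1 rose in Vehicle (1.12, adjusted p = 9e-05 in edgeR) and in LJP (0.69, adjusted p = 0.00411 in edgeR) against Sham and the other 3 did not pass the test, with sums of 711 to 754 CPM in Sham, 757 to 907 in Vehicle and 789 to 909 in LJP. The 6 T cell markers summed to 20.1 to 26.3 CPM in Sham, 4.21 to 6.85 in Vehicle and 8.13 to 13.8 in LJP. Most of this sum was Cd4, with means of 22.3 of 23.8 CPM in Sham, 3.84 of 5.63 in Vehicle and 8.48 of 10.1 in LJP. Cd4 fell in Vehicle (log2 difference -2.54, adjusted p = 0.00015 in edgeR) and in LJP (-1.39, adjusted p = 0.0129 in edgeR) against Sham, whereas Lck did not pass the test in Vehicle (adjusted p = 0.952 in edgeR). Of the T cell-defining transcripts Cd3e and Cd8a had at most 13 counts in any mouse and Cd3d and Cd3g at most 3. The neuron markers Rbfox3, Snap25 and Syt1 summed to at least 1761 CPM in every mouse, so the labelled brain tissue carried its defining transcripts. Their sum was lower in every Vehicle mouse than in Sham, at 2183, 1761, 2904 and 2803 CPM in Vehicle mice 1 to 4 against 3282 to 3725, and it was 2947 to 3533 in LJP. Of the 3, Snap25 (-0.53, adjusted p = 0.0146 in edgeR) and Syt1 (-0.60, adjusted p = 0.00428 in edgeR) fell in Vehicle, and Rbfox3 did not pass the test (adjusted p = 0.0673 in edgeR). The 4 B cell markers summed to 0.164 to 0.518 CPM in Sham, 0.681 to 1.55 in Vehicle and 0.511 to 0.870 in LJP. Only 1 of them was tested, Cd79b, with at most 21 counts in any mouse. It rose in Vehicle against Sham (2.11, adjusted p = 0.0211 in edgeR). The part of these cell types in the results was not tested, and in bulk tissue fewer cells of a type and less RNA per cell cannot be told apart.

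**Figure D1:**
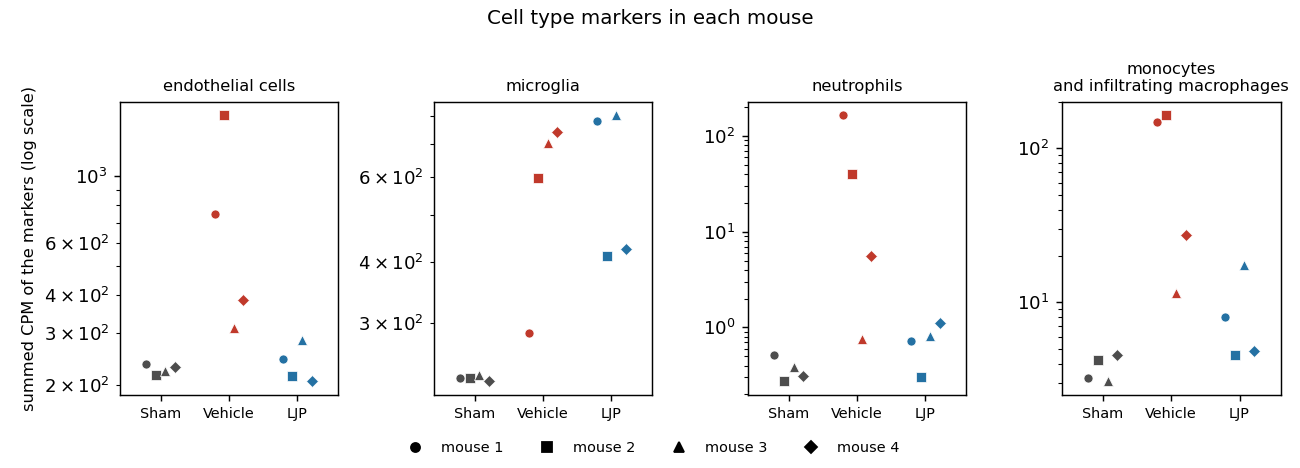
Summed CPM of 4 lists of cell type markers in each of the 12 mice, on log axes, with a symbol per mouse number. Vehicle mice 1 and 2 lie above every other mouse in the endothelial, neutrophil and monocyte sums, while Vehicle mouse 1 has the lowest microglia sum of the tMCAO mice.

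The comparison of Vehicle with Sham asks what occlusion and reperfusion changed. After tMCAO 8 of the 9 adhesion genes rose: both selectins, the selectin ligand, Icam1, Vcam1 and all 3 subunits of the beta-2 integrins measured. Itga4 did not pass the test. Selp and Sele are counted here although they entered the fit only through mice in which they were high. Of all genes tested 22.7% were called higher, and with scaling by library size alone the count of genes called higher grew from 3982 to 4737 while that of genes called lower went from 3032 to 2299. The largest differences were those of Selp, from near 0 to a mean of 15.6 CPM, Sele and Itgb2, and the smallest of those called was that of Vcam1. The groups did not overlap in 7 of the 9 genes, beside 20.7% of all tested genes with every Vehicle mouse above every Sham mouse. The median log2 fold change of the 9 genes was 2.74, that of all genes tested 3.54e-05, and Selp and Sele lie above that median, so it does not rest on their exact values. With Vehicle mice 1 and 2 both left out, a check chosen after seeing the data, 6 of the 9 genes were still called higher, beside 16.1% of all genes. Sele (log2 difference 2.62, adjusted p = 0.0882 in edgeR) and Vcam1 (0.33, adjusted p = 0.173 in edgeR) then lost the call, and the log2 fold changes of Selp, Icam1 and Itgal were smaller at 6.30, 1.87 and 1.39. Itgb2 at 2.92 (adjusted p = 1.88e-05 in edgeR), Itgam at 1.85 and Selplg at 0.81 kept it.

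Selp (Entrez Gene 20344, chr1:164115264-164150026 on GRCm38), which encodes P-selectin, was counted 1, 0, 1 and 1 times in Sham mice 1 to 4 and 351, 910, 42 and 97 times in Vehicle mice 1 to 4. The groups did not overlap, and the 4 Vehicle mice themselves spanned a 17.3-fold range of CPM, from 2.26 in mouse 3 to 39.1 in mouse 2. Its log2 fold change was 8.37 (SE 1.49, adjusted p = 0.00142 in edgeR), and without Vehicle mouse 2 it was 7.36. Because the Sham group held only 3 counts in all, the fitted value is no bound. By the ratio of summed counts per library size Selp was 414.5 times higher in Vehicle (95% interval 142 to 2013, counting error only). Platelets also carry P-selectin, and the sum of 4 platelet markers (Gp1ba, Gp9, Ppbp and Treml1) was 12.2 and 12.4 CPM in Vehicle mice 1 and 2, against 3.50 and 2.91 in Vehicle mice 3 and 4, 3.17 to 4.22 in Sham and 2.95 to 5.32 in LJP. Only 1 of these 4 markers had enough counts for the fit, and it did not pass the test. The part of platelets in the Selp values was not tested. Sele (Entrez Gene 20339, chr1:164039614-164058487), which encodes E-selectin, was counted 4, 1, 0 and 0 times in Sham and 81, 150, 4 and 13 times in Vehicle. Vehicle mouse 3, with 0.215 CPM, lay below Sham mouse 1 with 0.231, so the groups overlapped by that mouse. The log2 fold change was 5.22 (SE 1.22, adjusted p = 0.00564 in edgeR), with 4.37 without Vehicle mouse 2 and 6.85 without Sham mouse 1. The ratio of summed counts was 44.1 (95% interval 18.6 to 137). A two-sided exact permutation test on log2(CPM + 0.5), whose smallest p with 4 mice against 4 is 0.0286, gave p = 0.0286 for Selp and p = 0.0571 for Sele. For Selp this p only restates that the groups did not overlap. Both genes entered the fit through the mice in which they were high, so these p-values are no added support. Both genes overlap a long noncoding RNA on the other strand (Gm16548 with at most 21 counts and Gm51665 with at most 18), and without a stated strand setting reads of such pairs cannot be told apart.

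Selplg (Entrez Gene 20345, chr5:113817798-113832528), the ligand PSGL-1 on leukocytes and microglia, was abundant in every library. It measured 26.6, 30.4, 31.5 and 30.9 CPM in the Sham mice and 41.0, 42.5, 50.7 and 54.2 CPM in the Vehicle mice. Every Vehicle mouse lay above every Sham mouse, and here mice 3 and 4 rather than 1 and 2 were the highest of the Vehicle group. The log2 fold change was 0.66 (SE 0.17, adjusted p = 0.0093 in edgeR). Relative to the summed microglia markers, Selplg did not rise: the log2 ratio was -2.96 ± 0.11 (SD, n = 4) in Sham and -3.54 ± 0.49 (SD, n = 4) in Vehicle, with Vehicle mouse 1 at -2.80 and the other Vehicle mice between -3.81 and -3.77. These ratios are given as a description, without a test.

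Icam1 (Entrez Gene 15894, chr9:21015940-21028814), the endothelial and glial partner of LFA-1 and Mac-1, measured 2.42, 2.40, 3.07 and 4.61 CPM in the Sham mice. In the Vehicle mice it measured 31.9, 35.2, 10.4 and 12.6 CPM. The groups did not overlap, and within Vehicle, mice 1 and 2 were well above mice 3 and 4. The log2 fold change was 2.85 (SE 0.46, adjusted p = 0.000851 in edgeR). Divided by the summed endothelial markers Icam1 was still higher in Vehicle, with no overlap with Sham and mean log2 ratios of -4.97 ± 0.40 (SD, n = 4) and -6.23 ± 0.43 (SD, n = 4), a difference of 1.26. Vcam1 (Entrez Gene 22329, chr3:116110020-116129688), the partner of VLA-4, was counted 341, 410, 365 and 443 times in Sham and 657, 829, 474 and 524 times in Vehicle. In CPM the means were 21.2 ± 1.65 in Sham and 29.8 ± 4.27 in Vehicle (SD, n = 4 each). The groups did not overlap, yet the shift was small, with a log2 fold change of 0.49 (SE 0.17, adjusted p = 0.0334 in edgeR). The call was lost when any of Sham mice 1, 2 or 3 or Vehicle mice 1 or 2 was left out, with adjusted p-values of 0.0855, 0.0567, 0.0808, 0.0584 and 0.0889 in that order. Over the endothelial markers Vcam1 was lower in all 4 Vehicle mice than in any Sham mouse, at -4.38 ± 0.87 (SD, n = 4) against -3.41 ± 0.14 (SD, n = 4) on the log2 scale. The Icam1 to Vcam1 ratio within a mouse moved from a mean log2 value of -2.82 in Sham to -0.59 in Vehicle with no overlap.

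Itgb2 (Entrez Gene 16414, chr10:77530329-77565708), the beta-2 subunit CD18 shared by LFA-1 and Mac-1, measured 5.36, 4.41, 6.19 and 4.92 CPM in Sham. In Vehicle it measured 63.9, 85.9, 38.4 and 40.7 CPM. Every Vehicle mouse was far above the Sham range, and Itgb2 had the smallest adjusted p of the 9 genes, with a log2 fold change of 3.46 (SE 0.37, adjusted p = 0.000107 in edgeR). Itgam (Entrez Gene 16409, chr7:128062640-128118491), the Mac-1 alpha subunit CD11b of myeloid cells and microglia, measured 18.6, 23.7, 19.6 and 19.4 CPM in Sham and 139, 132.5, 69.0 and 78.2 CPM in Vehicle. It rose without overlap, by a log2 fold change of 2.37 (SE 0.30, adjusted p = 0.000243 in edgeR). Itgal (Entrez Gene 16408, chr7:127296139-127335137), the LFA-1 alpha subunit CD11a, was scarce, with 13, 19, 18 and 19 counts in Sham and 266, 188, 24 and 68 counts in Vehicle. Vehicle mouse 3, at 1.29 CPM, lay just above the highest Sham mouse at 1.04 CPM, while Vehicle mouse 1 reached 12.1 CPM. The log2 fold change of Itgal was 2.74 (SE 0.61, adjusted p = 0.00437 in edgeR).

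Itga4 (Entrez Gene 16401, chr2:79255426-79333114), the alpha subunit of VLA-4, did not pass the test. It measured 6.57, 6.10, 7.18 and 5.55 CPM in Sham and 5.58, 10.7, 7.37 and 7.38 CPM in Vehicle. The groups overlapped by Vehicle mouse 1 alone, which lay within the Sham range. Vehicle mouse 2 was the highest, and Vehicle mice 3 and 4 lay just above the highest Sham mouse at 7.18 CPM. The log2 difference was 0.29 (SE 0.18, adjusted p = 0.216 in edgeR), with 0.42 (adjusted p = 0.0632 in edgeR) without Vehicle mouse 1 and 0.09 (adjusted p = 0.688 in edgeR) without Vehicle mouse 2. Itga4 overlaps Cerkl on the other strand, which had at most 18 counts in a mouse against at least 107 for Itga4.

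**Figure D2:**
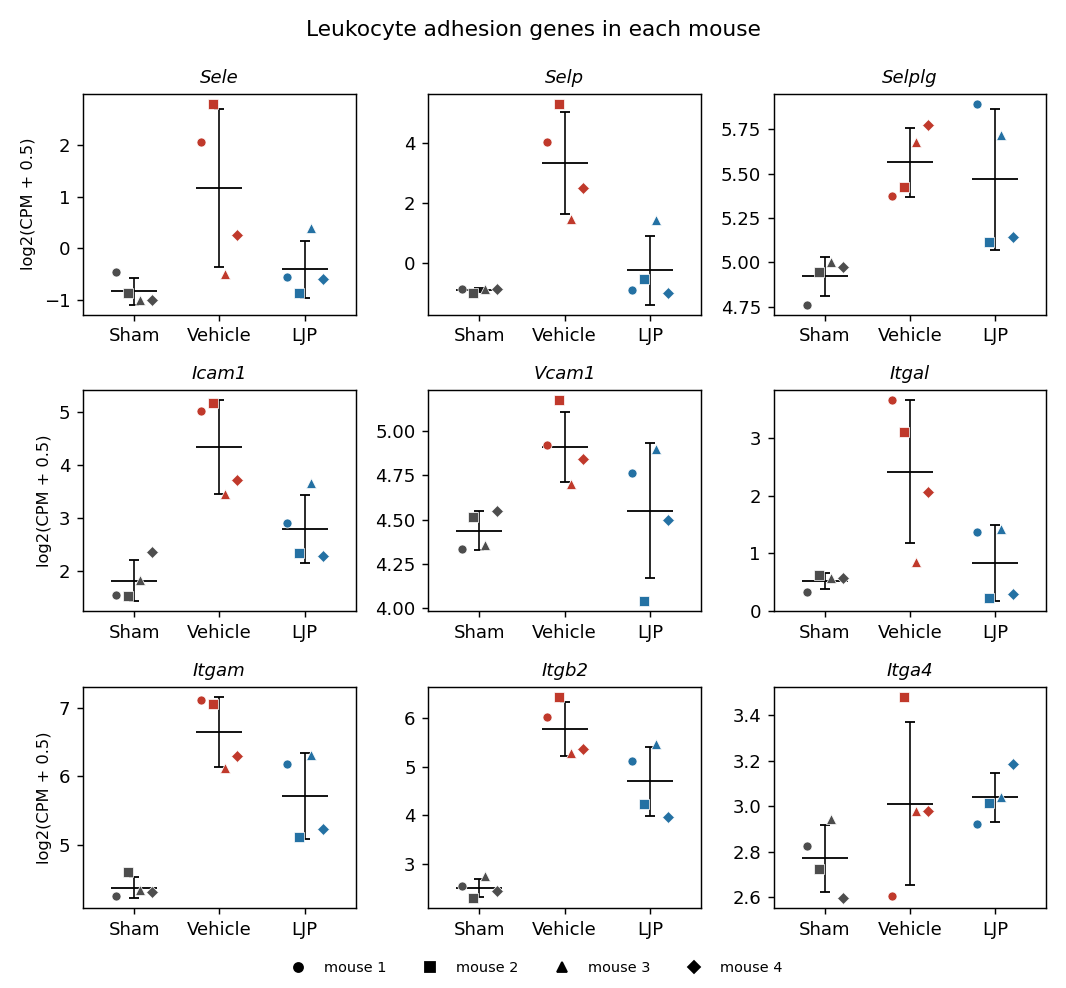
Level of each of the 9 genes as log2(CPM + 0.5) in each of the 12 mice, with a symbol per mouse number. Horizontal bars are group means with SD, n = 4, and the vertical scale differs between panels. In 7 panels every Vehicle mouse lies above every Sham mouse, and in the Icam1, Sele, Selp, Itgal, Itgam and Itgb2 panels Vehicle mice 1 and 2 lie above Vehicle mice 3 and 4.

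The subunits of the beta-2 integrins did not keep one ratio. The log2 ratio of Itgam to Itgb2 within a mouse was 1.79, 2.43, 1.66 and 1.98 in Sham and 1.12, 0.63, 0.84 and 0.94 in Vehicle. All Vehicle mice were below all Sham mice, with a mean difference of -1.08. For Itgal over Itgb2 the means were -2.48 ± 0.33 (SD, n = 4) in Sham and -3.55 ± 1.02 (SD, n = 4) in Vehicle with overlap. Relative to the microglia markers, Itgb2 was higher in Vehicle without overlap (-3.33 ± 1.02 against -5.48 ± 0.20, SD, n = 4 each), whereas Itgam overlapped, with Vehicle mice 3 and 4 at -3.35 and -3.24, mice 1 and 2 at -1.04 and -2.17, and the highest Sham mouse at -3.29. Itga4 over the same markers was lower in Vehicle without overlap, at -6.18 ± 0.51 against -5.19 ± 0.14 (SD, n = 4 each), and Itgal overlapped.

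**Figure D3:**
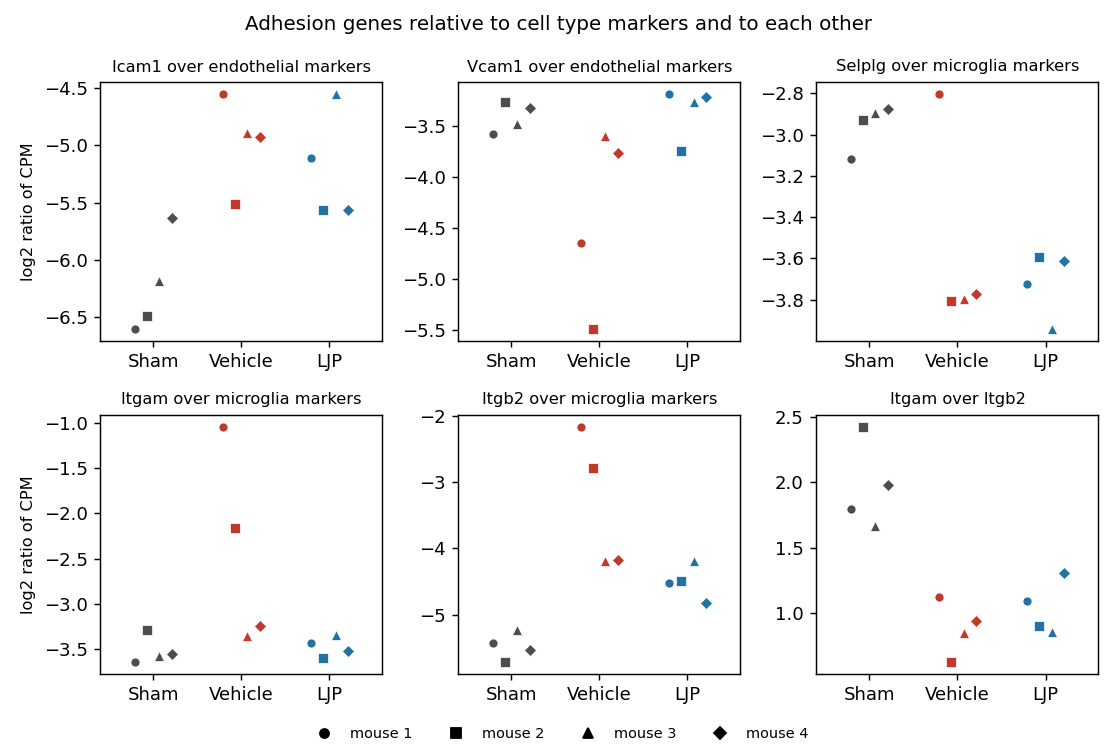
Log2 ratios of CPM within each mouse, of Icam1 and Vcam1 over the summed endothelial markers, of Selplg, Itgam and Itgb2 over the summed microglia markers, and of Itgam over Itgb2, with a symbol per mouse number. Vehicle and LJP mice lie above Sham for Icam1 over endothelial markers and Itgb2 over microglia markers, and below Sham for Itgam over Itgb2.

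The order of the genes by level, in mean CPM per kilobase of gene length, also differed between groups. In Sham Selplg led with 11.04 CPM per kb, followed by Vcam1 with 6.25 and Itgam with 4.34, each above the next without overlap. Itgb2 with 1.76 and Icam1 with 1.21 overlapped, then came Itga4 with 0.646 and Itgal with 0.170. Sele and Selp, with 0.0176 and 0.0119, were lowest and overlapped. In Vehicle Itgam led with 22.4 CPM per kb, and it overlapped with Itgb2 (19.2), as Itgb2 did with Selplg (17.4). Vcam1 at 8.77 and Icam1 at 8.75 followed, Selp reached 4.55, and Itgal, Itga4 and Sele lay between 0.681 and 1.14, with overlap between each neighbour from Vcam1 down. In LJP Selplg again led with 16.7 CPM per kb, ahead of Itgam with 11.9 and Itgb2 with 9.35, and each of these overlapped with the next. Vcam1 with 6.93 lay above Icam1 with 2.72 in every mouse.

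The comparison of LJP with Vehicle asks what the polysaccharide changed after tMCAO, and it uses the same Vehicle mice as the comparison above. All 9 genes had a lower mean in LJP than in Vehicle, but none passed edgeR's test, beside 0.0228% of all genes tested that were called in either direction. The differences were largest for Selp, Sele, Itgal and Icam1 and near 0 for Selplg and Itga4. At an unadjusted p below 0.05 there were 6 genes (Icam1, Sele, Selp, Itgam, Itgal and Itgb2), beside 29.7% of all genes in either direction, and DESeq2 called 6, where it called 9.48% of all its tested genes lower. By the cut-offs of the study's methods, a log2 difference beyond 0.58 with a raw p under 0.01, 6 of the 9 were lower, beside 5.89% of all genes. The count depended on single Vehicle mice: 6 of the 9 genes were called lower without Vehicle mouse 3, when 13.2% of all genes were, and 6 without Vehicle mouse 4, when 8.54% were, and none in the other 10 fits that left out 1 mouse. With Vehicle mice 1 and 2 both left out none was called, beside 0.0399% of all genes, and the log2 differences shrank to -2.62 for Selp, -0.61 for Sele, -0.72 for Icam1, -0.80 for Itgal, -0.51 for Itgb2 and -0.40 for Itgam, with adjusted p-values in edgeR from 0.226 to 0.797. The median log2 difference of the 9 genes was -1.04, and that of all genes tested -0.0017.

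Selp was counted 1, 4, 41 and 0 times in LJP mice 1 to 4, against 42 in the lowest Vehicle mouse. It was the only one of the 9 genes in which every LJP mouse was below every Vehicle mouse (5.91% of all tested genes were), and the gap was between 2.23 CPM in LJP mouse 3 and 2.26 CPM in Vehicle mouse 3. The log2 difference was -4.68 (SE 1.05, adjusted p = 0.0678 in edgeR). Without Vehicle mouse 2 it was -3.68, and without LJP mouse 3 it was -7.44. Over its alternatives the adjusted p of Selp ran from 0.0111 without Vehicle mouse 3 to 0.226 with Vehicle mice 1 and 2 left out. It was 0.015 in DESeq2 and 0.208 in edgeR with only the 2 groups compared. Sele was counted 4, 1, 15 and 3 times in LJP. LJP mouse 3, with 0.816 CPM, was above Vehicle mice 3 and 4 with 0.215 and 0.701. The log2 difference was -3.20 (SE 0.98, adjusted p = 0.0755 in edgeR and 0.0209 in DESeq2), with -2.36 without Vehicle mouse 2 and -4.32 without LJP mouse 3.

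Icam1 measured 7.04, 4.55, 12.1 and 4.35 CPM in the LJP mice. LJP mouse 3 lay above Vehicle mouse 3 at 10.4 CPM, and the other LJP mice lay below the Vehicle range. The means were 22.5 ± 12.8 CPM (SD, n = 4) in Vehicle and 7.003 ± 3.596 CPM (SD, n = 4) in LJP, with a log2 difference of -1.69 (SE 0.43, adjusted p = 0.0678 in edgeR and 0.0037 in DESeq2). The endothelial markers were also lower in LJP, where DESeq2 called 8 of 8 and edgeR 0 of 8, and over their sum Icam1 had log2 ratios of -5.20 ± 0.48 in LJP and -4.97 ± 0.40 in Vehicle (SD, n = 4 each), which overlapped. Vcam1 measured 26.7, 16.0, 29.4 and 22.1 CPM in LJP. These values ran from below the Sham range into the Vehicle range, and the log2 difference from Vehicle was -0.34 (SE 0.17, adjusted p = 0.184 in edgeR).

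Among the integrins, Itgal was counted 46, 13, 40 and 13 times in LJP, or 2.09, 0.665, 2.18 and 0.725 CPM. LJP mice 2 and 4 were below every Sham mouse, while LJP mice 1 and 3 were above Vehicle mouse 3. The log2 difference was -2.15 (SE 0.58, adjusted p = 0.068 in edgeR and 0.00543 in DESeq2). Itgb2 measured 34.0, 18.3, 43.8 and 15.1 CPM in LJP, with a log2 difference of -1.04 (SE 0.33, adjusted p = 0.0789 in edgeR) that was -0.78 without Vehicle mouse 2. Itgam measured 72.3, 34.2, 79.0 and 37.2 CPM, with a log2 difference of -0.91 (SE 0.29, adjusted p = 0.0795 in edgeR). In both genes LJP mice 2 and 4 were lower than any Vehicle mouse and LJP mouse 3 lay above Vehicle mice 3 and 4, while LJP mouse 1 lay above Vehicle mouse 3 for Itgam only. Over the microglia markers Itgam in LJP lay between -3.596 and -3.34 on the log2 scale, a range that held Vehicle mouse 3 at -3.35, while Vehicle mouse 4 at -3.24 lay just above it and Vehicle mice 1 and 2 far above it.

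Selplg measured 59.0, 34.2, 52.2 and 34.8 CPM in LJP, again with mice 1 and 3 above mice 2 and 4. Its log2 difference from Vehicle was -0.06 (SE 0.17, adjusted p = 0.818 in edgeR). Itga4 measured 7.09, 7.57, 7.72 and 8.58 CPM in LJP and differed from Vehicle by a log2 value of -0.0036 (SE 0.18, adjusted p = 0.992 in edgeR). The sign of these differences turned when single mice were left out. LJP mice 1 and 3 also had the higher microglia sums of their group, 780 and 802 CPM against 413 and 426, and the part of this in the spread was not tested.

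The comparison of LJP with Sham asks which differences from sham surgery were measured in treated tMCAO mice. Of the 9 genes, 2 rose, Itgb2 and Itgam, when 3.85% of all tested genes were called higher. Itgb2 was 5.22 ± 0.75 CPM (SD, n = 4) in Sham and 27.8 ± 13.5 CPM (SD, n = 4) in LJP, with a log2 fold change of 2.41 (SE 0.36, adjusted p = 0.00243 in edgeR), and it was called in all 12 fits that left out 1 mouse. Itgam was 20.3 ± 2.3 CPM (SD, n = 4) in Sham and 55.7 ± 23.3 CPM (SD, n = 4) in LJP, with a log2 fold change of 1.45 (SE 0.30, adjusted p = 0.0149 in edgeR). Its call was lost without Sham mouse 1, 3 or 4 or LJP mouse 3, with adjusted p-values of 0.0607, 0.0546, 0.0517 and 0.0541. Every LJP mouse lay above every Sham mouse in 3 genes, Itgb2, Itgam and Selplg, beside 12.9% of all tested genes. When Vehicle mice 1 and 2 were left out, which also changes the spread that the fit shares over groups, Icam1 (1.15, adjusted p = 0.0132 in edgeR) and Selplg (0.59, adjusted p = 0.00904 in edgeR) passed as well, 4 of 9 in all, beside 12.7% of all genes. A fit of only the LJP and Sham mice called the same 4 genes, beside 12.5% of all genes. The median log2 difference over the 9 genes was 1.16 and over all genes tested 0.0032.

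Selplg had a log2 difference from Sham of 0.59 (SE 0.17, adjusted p = 0.069 in edgeR and 0.0223 in DESeq2). Icam1 had a log2 difference of 1.16 (SE 0.45, adjusted p = 0.184 in edgeR), and LJP mice 2 and 4 at 4.55 and 4.35 CPM lay below the highest Sham mouse at 4.61. Selp was at 3 or more counts only in LJP mice 2 and 3, and its log2 difference of 3.69 (SE 1.94, adjusted p = 0.337 in edgeR) was 0.93 without LJP mouse 3. Sele (2.02), Itgal (0.59), Itga4 (0.28) and Vcam1 (0.15) had log2 differences that did not pass the test, and that of Sele was 0.90 without LJP mouse 3 and 3.65 without Sham mouse 1. The ratio of Itgam to Itgb2 in LJP, 1.04 ± 0.21 on the log2 scale (SD, n = 4), was below that of every Sham mouse and overlapped with Vehicle.

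**Figure D4:**
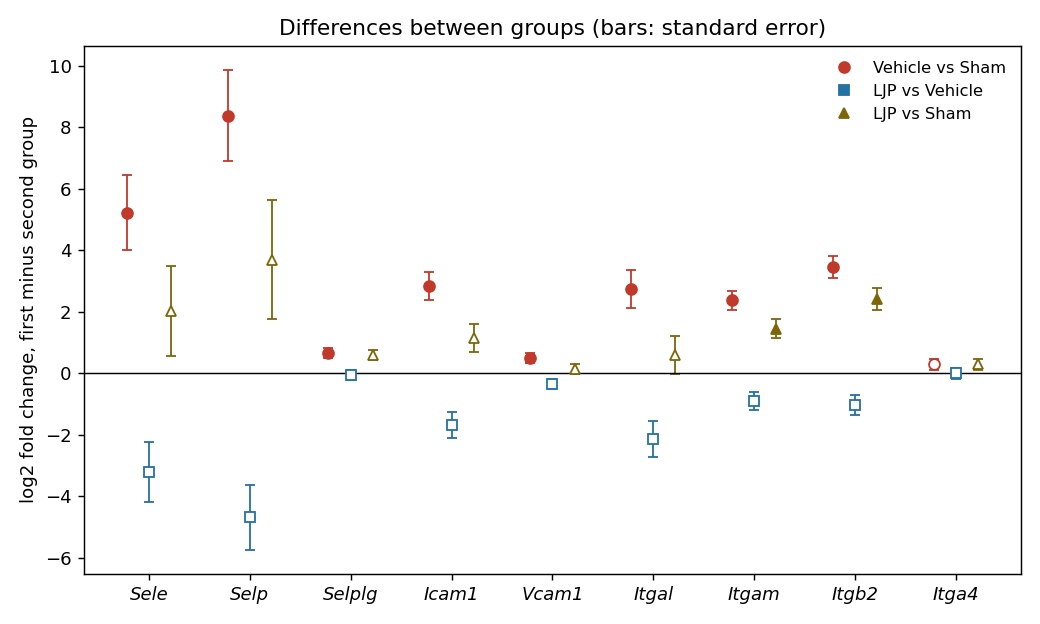
Log2 fold change of each of the 9 genes in the 3 comparisons, with edgeR's standard error as bars. Filled symbols have an adjusted p below 0.05. They are 8 of 9 genes for Vehicle vs Sham, 0 for LJP vs Vehicle and 2 for LJP vs Sham, and the selectins carry the widest errors.

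The other genes of the adhesion cascade were taken from a list of 68, of which 67 were in the table and 60 in the fit. In Vehicle against Sham 43 of the 60 rose, beside 22.7% of all genes tested, 4 fell, beside 17.3%, and 13 did not pass the test. These are 47 called in all, beside 39.9% of all genes, and 41 with Vehicle mice 1 and 2 left out, beside 30.7%. The same shares of all genes stand beside the counts of the smaller groups that follow. The median of the 60 log2 differences was 1.35. Among the 12 selectin ligands and glycan enzymes tested 9 rose, among them Cd44, a hyaluronan receptor that can also bind E-selectin, with a log2 fold change of 4.82 (SE 0.39, adjusted p = 4.6e-05 in edgeR), and Gcnt1, which builds the core 2 branch of the sugars on PSGL-1, with 2.24 (SE 0.28). Of 12 other integrin subunits 10 rose, including Itgax, the CD11c partner of Itgb2, by 3.45 (SE 0.59) and Itgb3, which pairs with the alpha-v and platelet alpha-IIb subunits, by 1.86 (SE 0.28).

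Of 13 genes that switch integrins on from inside the cell 10 rose and 1 fell. Fermt3, the kindlin of blood cells that binds beta integrin tails, rose by a log2 fold change of 2.62 (SE 0.26), and Fyb, an adaptor of integrin signalling in leukocytes, by 2.35 (SE 0.24). The gene that fell was Rasgrp2, an activator of Rap1 that is also expressed in neurons of the striatum, at -1.95. Of 17 endothelial adhesion and transmigration genes 10 rose and 2 fell. Msn, which encodes moesin and links membrane proteins to actin, rose by 3.42 (SE 0.45), while Alcam, a ligand of CD6 on T cells, fell by 0.96 on the log2 scale (SE 0.12), and Cd99l2, a protein of the transmigration step, fell by 0.36. Of 6 secreted inhibitors and sheddases 4 rose, and Edil3, a secreted ligand that blocks LFA-1, fell by 0.44. Ptx3, a pentraxin that can bind P-selectin, rose by 4.82 (SE 0.66) and by 4.20 without Vehicle mouse 1. Anxa1, an inhibitor of leukocyte adhesion, rose by 4.13 (SE 0.75) and by 2.93 without Vehicle mouse 2. Rasgrp2, Cyth1, Cd99l2 and Edil3 were named after their values were seen.

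In LJP against Vehicle none of the 60 genes passed edgeR's test and the median log2 difference was -0.67. With DESeq2 31 of them passed, all lower in LJP except Rasgrp2, Cyth1 and Alcam, beside 13.4% of all its tested genes in either direction. Without Vehicle mouse 3 edgeR called 34, beside 21.8% of all genes. The genes with the smallest p of each group were Emcn, a sialomucin of endothelial cells, at -2.92 (SE 0.61), Itga5, the fibronectin receptor subunit, at -2.13 (SE 0.51), Tln1, the talin that activates integrins, at -1.06 (SE 0.26), Cdh5, the cadherin of endothelial junctions, at -2.84 (SE 0.58), and Anxa1 at -3.37 (SE 0.70). By edgeR the adjusted p was 0.0678 for all 5. Without Vehicle mouse 2 the log2 differences were smaller, at -1.98 for Emcn, -1.32 for Itga5, -0.77 for Tln1, -1.98 for Cdh5 and -2.17 for Anxa1. In LJP against Sham 10 of the 60 rose, beside 3.85% of all genes, and 2 fell, beside 0.9%, with Cd44 at 3.89 (SE 0.38), Fyb at 1.91 (SE 0.24) and Fermt3 at 1.75 (SE 0.25) among those that rose and Rasgrp2 and Alcam the 2 that fell. Of the 12 fits that left out 1 mouse, Cd44, Fyb and Fermt3 were called in all 12, Rasgrp2 in 6 and Alcam in 3.

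**Figure D5:**
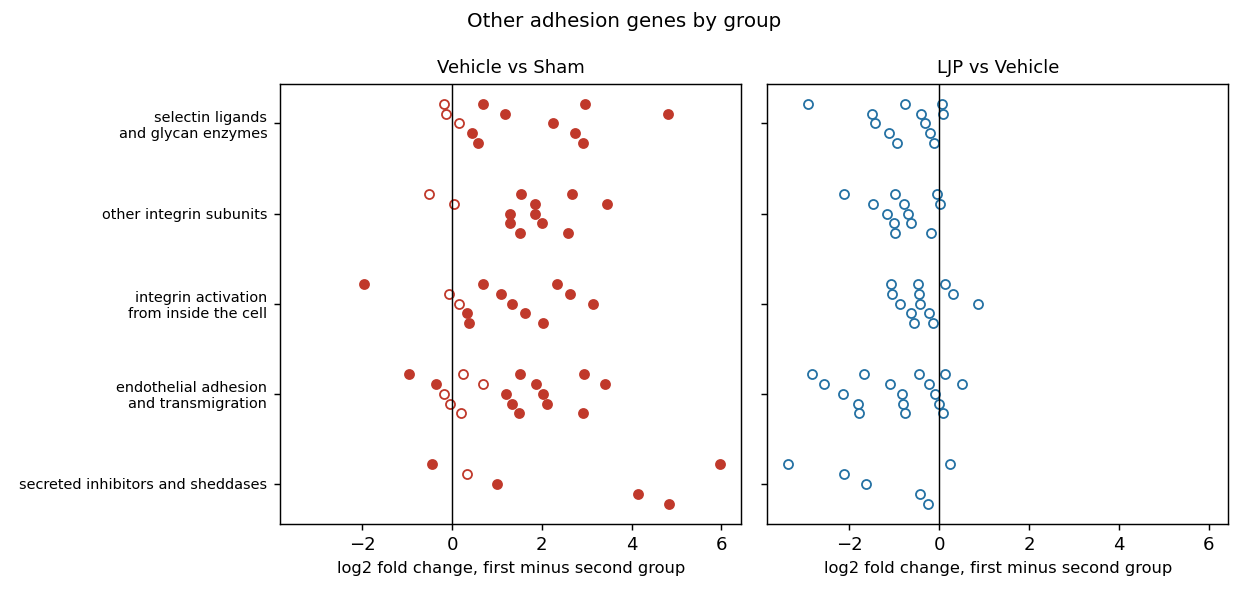
Log2 fold change of the 60 other adhesion genes tested, by group, for Vehicle vs Sham (left) and LJP vs Vehicle (right). Each point is a gene and filled points have an edgeR adjusted p below 0.05, which are 43 higher and 4 lower on the left and 0 on the right.

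The genes whose pattern over the 12 mice was nearest to a member's were found by the root mean square difference of log2 CPM after centring each gene on its own mean, over all genes tested. Nearest to Icam1 were Pdpn, a mucin-type membrane protein (0.22), and Zc3h12a, an RNase that limits inflammatory mRNAs (0.23), where Icam1 itself varied with a root mean square of 1.25 around its mean. Nearest to Selp was Cxcl1, a neutrophil chemokine, at 0.90, against 2.95 for Selp itself, and nearest to Sele was Dpep2 at 0.41 against 1.85. Itgam lay nearest to Csf3r, the receptor of granulocyte colony-stimulating factor (0.15 against 1.03). Itgb2 lay nearest to Cyba, a subunit of the phagocyte NADPH oxidase (0.19 against 1.48). Itgal lay nearest to Irak3, a brake on Toll-like receptor signalling (0.35 against 1.27). Selplg lay nearest to Lpcat2, a lysophospholipid acyltransferase (0.083 against 0.37), and second to Sall1, a transcription factor of microglia (0.14). For Vcam1 and Itga4 the nearest genes were Rpl15 (0.12 against 0.30) and Gpsm2 (0.12 against 0.25). All 12 points share their libraries, so these distances describe likeness in this set of mice alone.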

How the data were processed

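Poly(A) RNA of 12 mouse brains (4 Sham, 4 Vehicle, 4 LJP) was sequenced by the authors, who deposited raw counts per gene. The submitters' processing notes name featureCounts, DESeq2 and the builds GRCm39 and mm10 without roles. Gene positions in the table match GRCm38, and the aligner and strand setting are not given in the sources used here. Totals ran from 17960353 to 22216315 counts, which puts a floor of 3 counts at 0.129 to 0.173 CPM. All intervals given cover the error of counting alone.

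The analysis used R 4.3.3 and edgeR 4.0.16. filterByExpr kept 17558 of 39756 genes, TMM factors were computed, and glmQLFit and glmQLFTest were run with a coefficient per group over all 12 mice. P-values were adjusted over all tested genes by the Benjamini-Hochberg method and called below 0.05. The likeness distances used log2 CPM with a prior count of 2. The test was checked on simulated data. No library was a duplicate of another (chi-square per degree of freedom at least 2.52 within groups). As alternatives, DESeq2 1.42.0, RLE factors, scaling by library size only, no filter, a fit of the 2 groups alone, a block for the replicate number, the study's thresholds, and leaving out each mouse were tried, and leaving out Vehicle mice 1 and 2 together was added after the data were seen. Group and replicate number were taken from the sample titles.

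Members, gene lists, markers and alternatives were chosen with earlier results of these data known. Named genes are every member, in each group of the adhesion list the 2 genes with the smallest p in Vehicle vs Sham and the 1 with the smallest p in LJP vs Vehicle, and the 2 tested genes nearest to each member, of which the nearest and some second ones are given.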

Additional observations from a re-analysis of the deposited data

Results flagged for a closer look

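The values of each gene in each group were examined for a single mouse further from the other 3 than Dixon's critical ratio for 4 values allows, in 27 sets of 4 mice (9 genes in 3 groups) and on 2 scales, where about 1.35 sets per scale are expected by chance (1 in 20). On the log2(CPM + 0.5) scale 2 sets passed. Selp in Sham mouse 2 had a ratio of 0.903, because it was at 0 CPM while the other Sham mice were between 0.0518 and 0.0577 CPM, a difference of 1 count. Itgal in Sham mouse 1 had a ratio of 0.837, at 0.75 CPM against 0.985 to 1.04 CPM in the other Sham mice. On the CPM scale 3 sets passed. Selp in Sham mouse 2 passed again with 0.899. Selp in LJP mouse 3 had a ratio of 0.908, at 2.23 CPM against 0 to 0.204 CPM in the other LJP mice, and Sele in the same mouse lay just past the critical ratio with 0.8293, at 0.816 CPM against 0.0511 to 0.182 CPM.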

How the results depend on the processing

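For Vehicle vs Sham the count of adhesion genes called, 8 of 9, lay between 7 and 8 when each mouse was left out, and that of the other adhesion genes between 45 and 47. Of all 17558 genes those fits called 3200 to 4482 higher and 2097 to 3638 lower. For LJP vs Vehicle the count of members, 0, was 6 with DESeq2, 3 without the filter on low counts and 6 at the study's thresholds, and lay between 0 and 6 with a mouse left out, while for the other adhesion genes it was 34 with DESeq2 (which also tested genes that the filter removes), 15 without the filter and 24 at the study's thresholds, and lay between 0 and 34. Of all genes, DESeq2 called 672 higher and 1641 lower of 17314, and the unfiltered fit 50 higher and 543 lower of 30210. Of 17558 genes, the study's thresholds gave 188 higher and 1035 lower. The fit without Vehicle mouse 3 called 1512 higher and 2324 lower. For LJP vs Sham the count of members, 2, was 4 in the fit of only the 2 groups compared, which called 2186 of all genes higher against 676, and lay between 1 and 3 with a mouse left out, and that of the other adhesion genes, 12, was 20 with DESeq2, 39 with only the 2 groups, 7 with the replicate block, and lay between 6 and 26. Of all genes, DESeq2 called 1081 higher and 377 lower of 19069. Of 17558 genes, the fit of only the 2 groups called 2186 higher and 1876 lower, and the replicate block 405 and 59. The fits that left out 1 mouse called 350 to 1386 higher and 42 to 991 lower. With Vehicle mice 1 and 2 both left out, added after seeing the data, LJP vs Sham gave 4 members and 38 other adhesion genes. That fit called 2233 of all 17558 genes higher and 2168 lower. The causes were not tested. The direction of 2 small LJP vs Vehicle differences turned. Selplg ran from -0.22 to 0.048 with a mouse left out, and was positive without Vehicle mouse 4 (0.01), LJP mouse 2 (0.048) and LJP mouse 4 (0.042). Itga4 ran from -0.13 to 0.19 with a mouse left out, positive without Vehicle mouse 2 (0.19), LJP mouse 1 (0.037) and LJP mouse 2 (0.0071), and was 0.0066 without the filter, 0.019 with the replicate block and 0.066 with Vehicle mice 1 and 2 left out. Of the members' log2 differences under the alternatives, 163 kept direction and side of the threshold in Vehicle vs Sham and 8 lost the call, 7 of Vcam1 and 1 of Sele. In LJP vs Vehicle 141 did so, 21 passed the threshold and 9 turned, and in LJP vs Sham 158 did so, 9 passed it and 4, all of Itgam, lost the call.

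Replicate numbers are shared between groups, but of 12 same-numbered pairs only 1 had a correlation of deviations over 0.1 (range -0.32 to 0.11), so they were not taken as pairs. With the replicate block 7, 0 and 2 members were called in the 3 comparisons, when 3451 of all 17558 genes were called higher in Vehicle vs Sham, 2 lower in LJP vs Vehicle and 405 higher in LJP vs Sham, and Vcam1 in Vehicle vs Sham had an adjusted p of 0.072. No member was removed by the low-count filter, so the exact test planned for such members had none to apply to. Outside that plan it was computed for every member and is given for Selp and Sele. Depth limits Sele and Selp in Sham and LJP, where LJP mouse 3 alone had more than 4 counts.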
